A study of Homo sapiens with 18 samples.

Results

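MET, MST1R, ST14, SPINT1 and SPINT2 encode the receptors of the MET family and the surface protease system that activates their ligands. The genes were taken by symbol, with every probe of the Illumina human expression BeadChip annotated to them, which gave 5 of 18849 genes on the array and 6 of 48803 probes. All 5 genes passed the filter on dim probes, as did 5 of the 6 probes, among 11820 genes tested. RNA was measured on 18 arrays in 6 groups of 3. The parental line HCC827, a non-small cell lung cancer line, and its erlotinib-resistant sublines ER3 and T15-2 each received DMSO or 1 µM erlotinib for 12 hours after overnight starvation, in medium with serum and antibiotics according to the growth protocol. Erlotinib inhibits the EGFR kinase, and the series was made to study acquired resistance to such drugs. The labels do not say how the sublines were selected or whether each is a single clone. The labels number the 3 samples of a group as a triplicate and do not say that they came from separate cultures, so p-values measure the spread between these samples, which may be technical.

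MET is the receptor tyrosine kinase for hepatocyte growth factor, and MST1R, also called RON, is its closest relative and the receptor for macrophage-stimulating protein. Both ligands are secreted as inactive single chains that serine proteases must cleave. ST14 encodes matriptase, a membrane-bound protease of epithelial cells that can cleave them, and SPINT1 and SPINT2 encode the Kunitz-type inhibitors that restrain matriptase and related proteases. Gain of MET is a known route of resistance to EGFR inhibitors in lung cancer, and matriptase with its inhibitors is known as a property of intact epithelium.

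The promoters of the 3 genes whose level changed with erlotinib in HCC827 are shown because they changed in both directions, MET and MST1R downward and SPINT1 upward. The sequences are RefSeq's on GRCh38.p14, which need not be the build of the array design, from 250 bases before the annotated start to 30 bases after it, read along the strand of the gene. They stand at chr7:116671946-116672225 on the plus strand, chr3:49903844-49904123 on the minus strand and chr15:40843798-40844077 on the plus strand. Capitals mark matches on either strand to 3 motifs, TGANTCA of AP-1 factors, CCGGAA of ETS factors and the E-box CACCTG.
MET: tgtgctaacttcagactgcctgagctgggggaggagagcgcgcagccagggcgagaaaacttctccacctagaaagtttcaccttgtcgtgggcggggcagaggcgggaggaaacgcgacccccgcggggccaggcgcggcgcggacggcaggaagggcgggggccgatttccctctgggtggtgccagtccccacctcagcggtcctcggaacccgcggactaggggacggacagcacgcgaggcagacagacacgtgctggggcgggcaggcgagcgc
MST1R: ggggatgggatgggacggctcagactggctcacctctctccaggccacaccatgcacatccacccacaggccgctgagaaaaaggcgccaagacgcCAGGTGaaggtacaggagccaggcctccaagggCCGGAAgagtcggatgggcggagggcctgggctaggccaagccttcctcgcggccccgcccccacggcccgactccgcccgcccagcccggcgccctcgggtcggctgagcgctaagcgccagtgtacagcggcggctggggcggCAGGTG
SPINT1: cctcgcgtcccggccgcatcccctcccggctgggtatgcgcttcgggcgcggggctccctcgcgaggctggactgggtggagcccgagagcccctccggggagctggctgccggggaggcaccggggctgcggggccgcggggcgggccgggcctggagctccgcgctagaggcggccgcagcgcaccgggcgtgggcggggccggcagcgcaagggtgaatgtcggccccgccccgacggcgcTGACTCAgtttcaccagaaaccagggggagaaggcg
The MET window held no match, also over its full 300 bases. The MST1R window held 1 ETS match that begins 121 bases before the start, and 2 E-box matches, which begin 154 bases before the start and at base 25 after it. The SPINT1 window held 1 AP-1 match that begins 6 bases before the start. None of the matches overlapped another. Of 35116 RefSeq promoter windows of 300 bases, 7.71% held the AP-1 letters, 17.2% the ETS letters and 20.6% the E-box letters, so none of the motifs was rare. SPINT1 has a second annotated window that was searched as well, and it held 1 E-box match. ST14 and SPINT2 are not in the promoter table.

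Values below are log2 intensities after background correction and quantile normalization, and differences are tested with limma over all 11820 genes. A call means a Benjamini-Hochberg adjusted p below 0.05. Levels of different genes come from different probes and are not set against each other. Detected probes numbered 15698 to 17869 per array, and arrays of a group correlated between 0.991 and 0.997 across genes. The main axis of variation within groups, with 24.5% of that variance, had DMSO replicate 2 of ER3 at one end and erlotinib replicate 3 of T15-2 at the other. The MET value of the first lay 0.50 above its group mean and that of the second lay -0.42 from its mean, and MET results that rest on these arrays are given without them where they moved. The largest MET deviation of the 18 arrays was -0.53, in DMSO replicate 1 of ER3, which was not at an end of that axis. All 6 epithelial markers were above background on all 18 arrays. Of the markers of other cells, the fibroblast genes COL1A2, COL3A1, PDGFRB and THY1, the leukocyte genes PTPRC and MS4A1 and the endothelial gene CDH5 were above background on none, while CD68 and PECAM1 were on all 18, LYZ on 16, VWF on 9, DCN on 7, COL1A1 on 6 and CD3E on 2.

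MET fell in HCC827 under erlotinib and did not fall in either subline. In HCC827 its values were 7.88, 7.52 and 7.54 in DMSO and 6.24, 6.02 and 5.55 in erlotinib. In ER3 they were 7.20, 8.23 and 7.76 in DMSO and 8.44, 8.06 and 8.61 in erlotinib. In T15-2 they were 8.01, 8.12 and 7.80 in DMSO and 8.53, 8.58 and 7.92 in erlotinib. The 3 erlotinib arrays of HCC827 were the lowest of all 18 and stood clear of every other array, while in both sublines the treated and untreated arrays overlapped. The fall in HCC827 was 3.28-fold (log2 change -1.71 ± 0.23, SE, limma adjusted p = 6.6e-06), the 39th lowest change of 11820 genes. The MET probe was dim on the treated HCC827 arrays (uncorrected signals of 84.6 to 117.1), though above background on all 3. Alternatives that left out no single array gave falls as small as -1.26. In RNA from a whole culture, fewer cells that express a gene and less RNA per cell cannot be told apart.

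**Figure D1:**
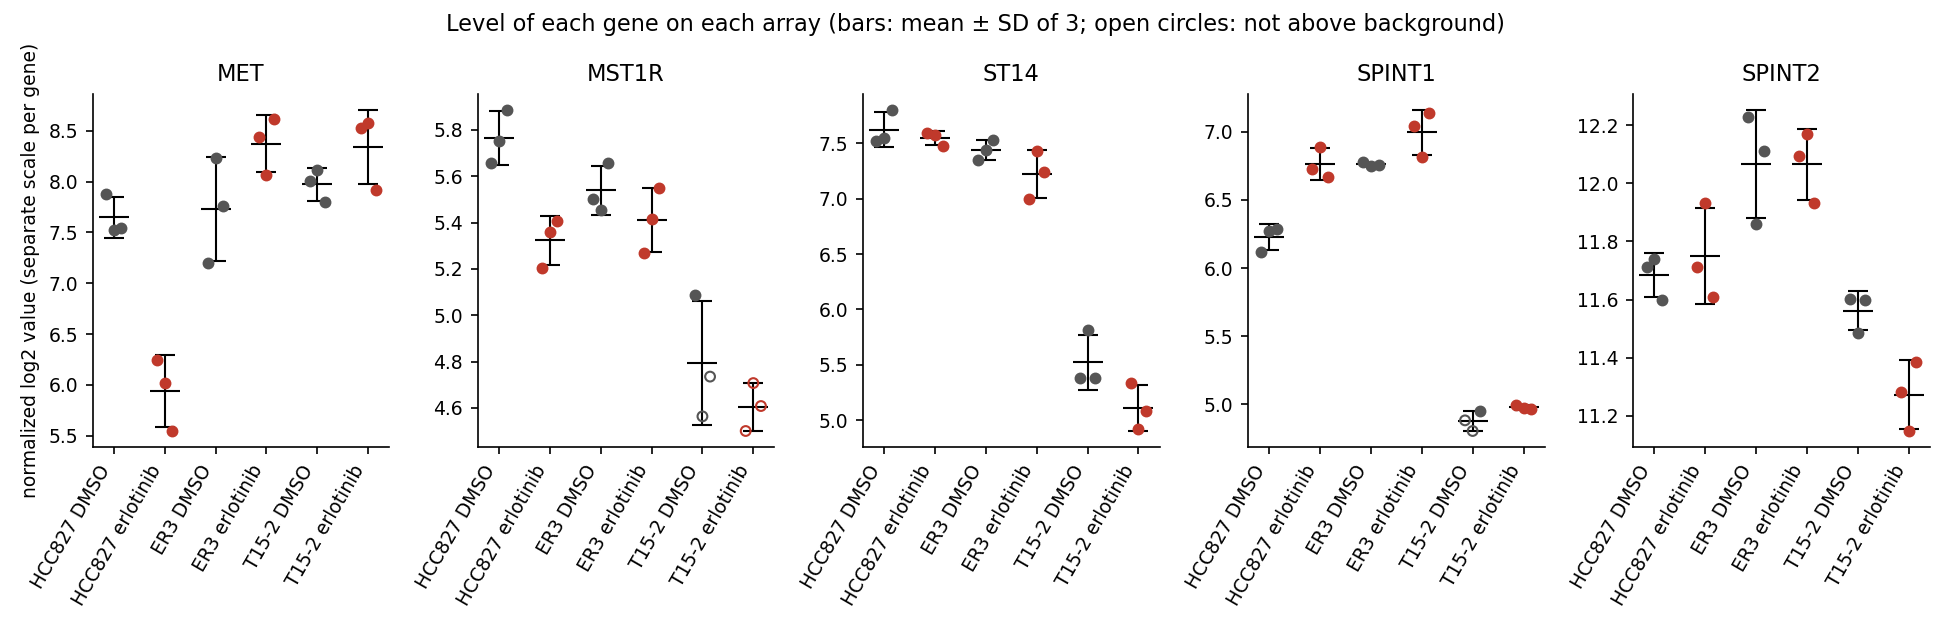
Normalized log2 value (vertical axis, on a separate scale for each gene) of MET, MST1R, ST14, SPINT1 and SPINT2 on each of the 18 arrays, with the mean ± SD of each group of 3; grey points are DMSO, red points erlotinib, and open circles arrays where the probe was not above background. MET is low in treated HCC827 alone, whereas ST14, SPINT1 and MST1R are low in both T15-2 groups.

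The 6 group means of MET ran from ER3 in erlotinib (8.37 ± 0.28, SD, n = 3) and T15-2 in erlotinib (8.34 ± 0.37) through T15-2 in DMSO (7.97 ± 0.16), ER3 in DMSO (7.73 ± 0.51) and HCC827 in DMSO (7.65 ± 0.20) to HCC827 in erlotinib (5.94 ± 0.35). Each neighbouring pair of the first 5 overlapped in its arrays. Without drug the sublines did not differ detectably from HCC827: the difference was 0.079 in ER3 (95% interval -0.39 to 0.55, limma adjusted p = 0.82) and 0.32 in T15-2 (-0.15 to 0.80, adjusted p = 0.30). The first of these turned to -0.21 after median scaling, where the median of all genes was itself -0.22, and to -0.17 without DMSO replicate 2 of ER3. Without DMSO replicate 1 of ER3 it was 0.34. MET was one of the noisiest genes measured, with a within-group SD of 0.33 that exceeded that of 99.3% of genes, so its intervals are wide.

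Under erlotinib the lines separated. MET was 5.41-fold higher in ER3 than in HCC827 (log2 difference 2.44 ± 0.23, SE, limma adjusted p = 4.05e-08) and 5.30-fold higher in T15-2 than in HCC827 (2.41 ± 0.23, adjusted p = 4.99e-08). These ranked 25th and 13th from the top among all genes. Both rest on the dim treated HCC827 arrays. Alternatives that left out no single array gave log2 differences as low as 1.89 for ER3 and 1.87 for T15-2. T15-2 and ER3 did not differ detectably from each other in drug (-0.030, 95% interval -0.50 to 0.44), and the sign of that value turned in several alternatives. The erlotinib response of each subline was tested against that of HCC827 directly, and the difference was 2.36 ± 0.32 (SE) for ER3 (adjusted p = 3.97e-05) and 2.08 ± 0.32 for T15-2 (adjusted p = 0.000256). Both differences use the same 6 HCC827 arrays. The sublines' responses did not differ detectably from each other (-0.27, 95% interval -0.95 to 0.40, limma adjusted p = 0.89).

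Within ER3 the treated arrays averaged 0.64 ± 0.23 (SE) above the untreated ones, a value that missed the threshold (limma adjusted p = 0.12) but was the 31st highest of 11820 genes. Leaving out single arrays gave 0.38 to 0.89, with limma adjusted p from 0.0301 to 0.43. The lowest value, 0.38, came without DMSO replicate 1 of ER3, whose MET value deviated most from its group mean. The highest value came without DMSO replicate 2 of ER3 (0.89, adjusted p = 0.0301). Without that array and erlotinib replicate 3 of T15-2 together, a pair chosen after seeing the data, the value was 0.89 (adjusted p = 0.0171). Median scaling also moved it past the threshold (0.83, adjusted p = 0.0438), where the median of all genes was itself 0.14. In T15-2 the value was 0.37 (95% interval -0.11 to 0.84, adjusted p = 0.36), and without erlotinib replicate 3 of that line it was 0.58 (adjusted p = 0.131). Without that array the log2 difference of treated T15-2 from treated HCC827 was 2.62 (adjusted p = 6.08e-08). Without it and DMSO replicate 2 of ER3 together, the differences of response from HCC827 were 2.61 (adjusted p = 3.9e-06) for ER3 and 2.29 (adjusted p = 2.76e-05) for T15-2.

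MST1R fell in HCC827 under erlotinib too, on a dim probe whose change is not set against that of MET. Its values in HCC827 were 5.66, 5.75 and 5.89 in DMSO and 5.20, 5.36 and 5.41 in erlotinib. In ER3 they were 5.50, 5.46 and 5.66 in DMSO and 5.27, 5.42 and 5.55 in erlotinib. In T15-2 they were 5.09, 4.56 and 4.74 in DMSO and 4.50, 4.71 and 4.61 in erlotinib. The HCC827 groups did not overlap, the ER3 groups did, and every T15-2 array lay below every array of the other lines. The change in HCC827 was -0.44 ± 0.12 (SE, limma adjusted p = 0.00615), and the response of ER3 did not differ detectably from it (difference of 0.31, adjusted p = 0.19). A response in T15-2 could not be measured with this probe, which was near background there.

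The probe for MST1R was dim. It was above background on 13 of 18 arrays, on 1 of the 3 T15-2 DMSO arrays and on none of the 3 T15-2 erlotinib arrays. In DMSO the fitted level of T15-2, from a group with 1 array above background, was 1.96-fold lower than in HCC827 (log2 difference -0.97 ± 0.12, SE, limma adjusted p = 3.42e-06) and 1.67-fold lower than ER3 (-0.74 ± 0.12, adjusted p = 8.71e-05). Under erlotinib only bounds could be given, since the probe was not above background in T15-2. The level there was at least 1.39-fold lower than in HCC827 and at least 1.47-fold lower than in ER3. Limma adjusted p-values, which belong to the fitted differences and do not test the bounds, were 6.71e-05 and 4.25e-05. Such a bound sets the bright group's mean against the lowest detected signal or the dim probe's own, whichever was higher on each array. ER3 and HCC827 did not differ past the threshold in DMSO (-0.23, 95% interval -0.48 to 0.02, adjusted p = 0.15), although their arrays did not overlap.

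ST14, the matriptase gene, was the member with the largest difference between untreated lines. In DMSO its values were 7.52, 7.54 and 7.81 in HCC827, 7.35, 7.44 and 7.53 in ER3 and 5.38, 5.81 and 5.38 in T15-2. In erlotinib they were 7.59, 7.57 and 7.48 in HCC827, 6.99, 7.43 and 7.25 in ER3 and 5.33, 4.92 and 5.08 in T15-2. All 6 T15-2 arrays lay below all 12 arrays of the other lines, and the probe was still above background on each of them. T15-2 was 4.29-fold lower than HCC827 in DMSO (log2 difference -2.10 ± 0.13, SE, limma adjusted p = 2.58e-10), the 59th lowest of 11820 genes, and 5.41-fold lower in erlotinib (-2.44 ± 0.13, adjusted p = 1.63e-11). Against ER3 it was 3.78-fold lower in DMSO and 4.32-fold lower in erlotinib (adjusted p = 2.09e-09 and 4.66e-10), the 23rd and the 20th lowest change.

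Erlotinib did not move ST14 past the threshold in any line. The changes were -0.076 in HCC827 (95% interval -0.36 to 0.21, limma adjusted p = 0.70), -0.22 in ER3 (-0.50 to 0.06, adjusted p = 0.39) and -0.41 in T15-2 (-0.69 to -0.13, adjusted p = 0.063). In T15-2 the treated and untreated arrays did not overlap, with the nearest at 5.33 and 5.38. The value passed with the stricter filter on dim probes (adjusted p = 0.0478) and without erlotinib replicate 1 of ER3 (0.0489) or of T15-2 (0.0473). The probe was dim in T15-2, with uncorrected signals of 79.5, 82.3 and 79.7 in DMSO and 79.2, 68.6 and 71.7 in erlotinib. A response there was not established. Between ER3 and HCC827 the difference was -0.18 in DMSO (adjusted p = 0.32) and -0.32 in erlotinib (adjusted p = 0.056). The latter passed in 7 of 28 alternatives, among them no background correction (-0.26, adjusted p = 0.0263) and the authors' processed values (-0.26, adjusted p = 0.0263). After median scaling, where the median of all genes was itself -0.22, the DMSO value was -0.49 and passed (adjusted p = 0.0149).

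SPINT1, the inhibitor first described on hepatocyte growth factor activator, was low in the same subline and rose with drug in the parental line. In DMSO its values were 6.12, 6.27 and 6.29 in HCC827, 6.78, 6.75 and 6.76 in ER3 and 4.88, 4.80 and 4.95 in T15-2. In erlotinib they were 6.73, 6.89 and 6.67 in HCC827, 7.04, 6.81 and 7.14 in ER3 and 5.00, 4.97 and 4.96 in T15-2. All T15-2 arrays were below all others, and treated HCC827 reached the level of untreated ER3. In DMSO the gene was 2.55-fold lower in T15-2 than in HCC827 (log2 difference -1.35 ± 0.09, SE, limma adjusted p = 7.61e-10) and 3.68-fold lower than in ER3 (-1.88 ± 0.09, adjusted p = 1.37e-11). In erlotinib it was 3.45-fold lower than in HCC827 and 4.06-fold lower than in ER3 (adjusted p = 5.91e-12 and 3.72e-12). The probe was above background on 1 of the 3 untreated and on all 3 treated T15-2 arrays. A second SPINT1 probe was above background on 1 of 18 arrays and was left out.

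Under erlotinib SPINT1 rose 1.45-fold in HCC827 (log2 change 0.54 ± 0.09, SE, limma adjusted p = 0.000124), with no overlap between groups. The changes of 0.24 in ER3 (adjusted p = 0.16) and 0.099 in T15-2 (adjusted p = 0.59) did not pass, although the groups did not overlap in either subline. The fitted response of T15-2 lay below that of HCC827 (difference -0.44 ± 0.13, adjusted p = 0.0318). The probe was near background in T15-2, above it on 1 of the 3 untreated arrays, so a smaller response there was not established. Median scaling ended the call (-0.29, adjusted p = 0.33, with the median of all genes at 0.24), as did leaving out any of 6 arrays. The response of ER3 differed from that of HCC827 by -0.30 (adjusted p = 0.11). Untreated ER3 stood 0.53 ± 0.09 above untreated HCC827 (adjusted p = 0.000156). After median scaling, with the median of all genes at -0.22, this was 0.26 and no longer passed (adjusted p = 0.16).

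SPINT2, a second inhibitor with a broader range of target proteases, differed by smaller amounts among the lines. In DMSO its values were 11.71, 11.74 and 11.60 in HCC827, 12.23, 11.86 and 12.11 in ER3 and 11.60, 11.48 and 11.60 in T15-2. In erlotinib they were 11.71, 11.93 and 11.61 in HCC827, 12.09, 12.17 and 11.93 in ER3 and 11.28, 11.15 and 11.39 in T15-2. Untreated ER3 lay above untreated HCC827, and treated T15-2 lay below every other array. Untreated T15-2 did not differ detectably from HCC827 (-0.12, 95% interval -0.35 to 0.11, limma adjusted p = 0.43), and ER3 was 0.38 ± 0.11 (SE) higher (adjusted p = 0.00947). Median scaling ended that call (0.20, adjusted p = 0.29, with the median of all genes at -0.22), as did leaving out DMSO replicate 1 of ER3 (0.30, adjusted p = 0.0597). In erlotinib T15-2 was 1.39-fold lower than HCC827 (-0.48 ± 0.11, adjusted p = 0.0013) and 1.73-fold lower than ER3 (-0.79 ± 0.11, adjusted p = 1.6e-05). After median scaling, with the median of all genes at 0.10, the difference from HCC827 was -0.24 (adjusted p = 0.20). No response to drug passed, and the value in T15-2 was -0.29 (95% interval -0.52 to -0.06, adjusted p = 0.11), or -0.35 (adjusted p = 0.0448) without the 2 arrays that stood apart.

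Counted over the 5 genes, erlotinib in HCC827 left 1 higher and 2 lower, where 37.7% of all genes were called, 19.2% higher and 18.5% lower. In ER3 limma called none of the 5 (2310 of all genes had an unadjusted p below 0.05), and 3.76% of all genes were called, 2.01% higher and 1.74% lower. In T15-2 it also called none (2669 of all genes had an unadjusted p below 0.05), and 8.43% of all genes were called, 4.43% higher and 4% lower. In DMSO, ER3 against HCC827 had 2 higher and 0 lower, and 35.1% of all genes were called, 16% higher and 19% lower. In the same condition T15-2 against HCC827 had 0 higher and 3 lower, and 32.2% of all genes were called, 15.9% higher and 16.3% lower. Untreated T15-2 against ER3 had 0 higher and 4 lower, and 33.4% of all genes were called, 17.8% higher and 15.5% lower. Under erlotinib, ER3 against HCC827 had 3 higher and 0 lower, and 44.6% of all genes were called, 21.6% higher and 23% lower. Treated T15-2 against treated HCC827 had 1 higher and 4 lower, and 42.6% of all genes were called, 21.9% higher and 20.7% lower. Treated T15-2 against treated ER3 had 0 higher and 4 lower, and 29.3% of all genes were called, 15.8% higher and 13.5% lower. The difference in response of ER3 and HCC827 had 1 higher and 0 lower, and 22% of all genes were called, 11.6% higher and 10.4% lower. That of T15-2 and HCC827 had 1 higher and 1 lower, and 13.1% of all genes were called, 7.17% higher and 5.9% lower. Between the responses of the sublines none of the 5 was called, with 947 of all genes at an unadjusted p below 0.05, and 0.0338% of all genes were called, 0% higher and 0.0338% lower. Where 4 of the 5 genes were lower in T15-2, the share lower among all genes was 13.5% to 20.7%. The calls of SPINT1 and SPINT2 between treated ER3 and HCC827 were marginal (0.23, limma adjusted p = 0.046, and 0.31, adjusted p = 0.0236), with overlapping arrays, and leaving out single arrays ended either one.

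**Figure D2:**
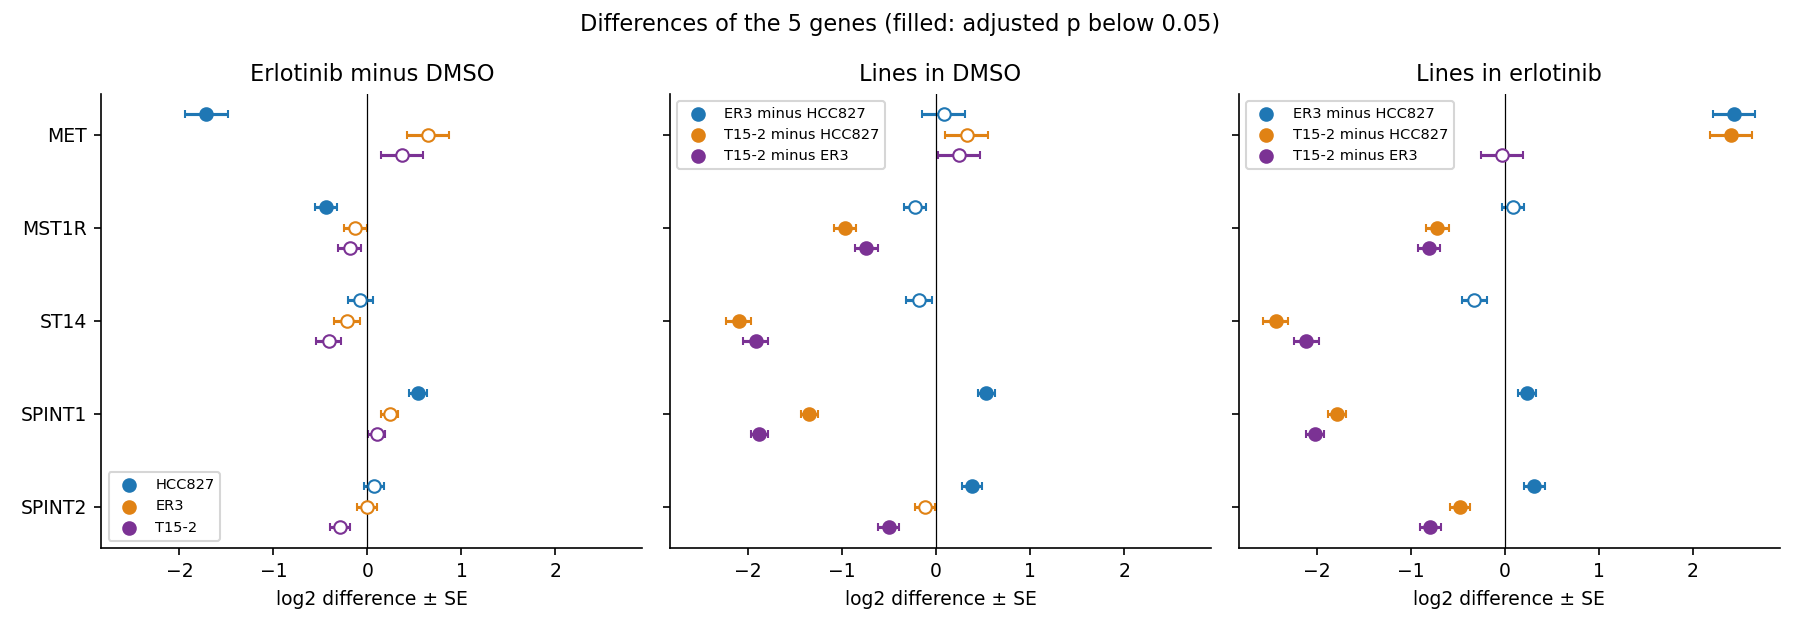
Log2 difference ± SE (horizontal axis) of each of the 5 genes, for erlotinib minus DMSO within each line (left), between lines in DMSO (middle) and between lines in erlotinib (right), with filled points where the adjusted p is below 0.05. MET is called between lines in the right panel only, at 2.44 and 2.41, while ST14 and SPINT1 are lower in T15-2 in both line panels.

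The lower level of matriptase in T15-2 came together with lower levels of several of its partners. Of 11 listed partners and substrates 7 were measured. In T15-2 against HCC827 in DMSO, 4 of the 7 were lower and none higher (16.3% and 15.9% of all genes), and the median difference was -1.65 against 0.0096 for all genes. Those lower were SCNN1A, a subunit of the epithelial sodium channel that such proteases activate (-2.31 ± 0.09, SE, limma adjusted p = 1.35e-13), PRSS8, or prostasin, which acts with matriptase in a protease cascade (-2.01 ± 0.12, adjusted p = 1.11e-10), EPCAM, a surface protein that matriptase can cleave (-1.71 ± 0.20, adjusted p = 1.98e-06), and the tight-junction protein CLDN7, which EPCAM binds (-1.65 ± 0.11, adjusted p = 6.81e-10). In ER3 against HCC827 the same list had 1 gene higher, the urokinase receptor PLAUR (1.29 ± 0.10, adjusted p = 1.06e-08), none lower and a median of -0.11. Among all genes 16% were higher and 19% lower in that comparison. The difference between T15-2 and ER3 in DMSO had 5 of the 7 lower and none higher (15.5% and 17.8% of all genes), with a median of -1.46.

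The summed linear level of 6 epithelial markers ranged from 20264 to 21666 in HCC827, from 20764 to 22897 in ER3 and from 11796 to 12884 in T15-2, all in DMSO. In T15-2 in erlotinib it ranged from 12924 to 13178. In T15-2 against HCC827 in DMSO, 5 of the 6 were lower, where 16.3% of all genes were. CDH1, the main cadherin of epithelial junctions, was at -1.92 ± 0.08 (SE, limma adjusted p = 5.85e-13) and EPCAM as given above, while KRT18 did not pass (0.12, adjusted p = 0.555). No marker was at background in T15-2. In HCC827 under erlotinib the sum ranged from 17043 to 18656, below the untreated range. The part of the marker levels in the differences of ST14, SPINT1 and MST1R was not tested.

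**Figure D3:**
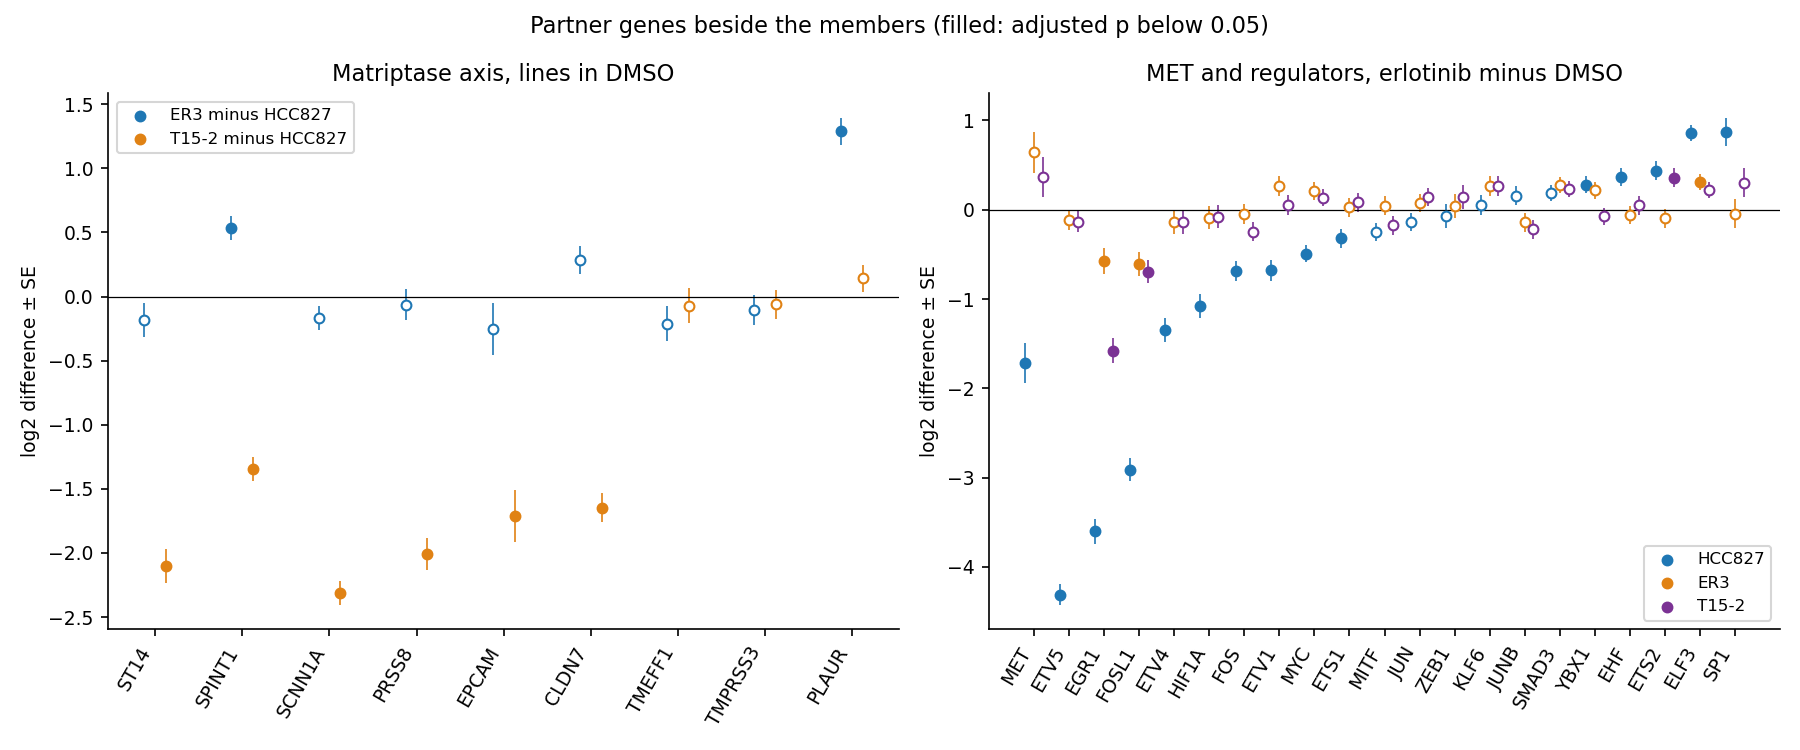
Log2 difference ± SE (vertical axis) for ST14, SPINT1 and the measured matriptase partners between lines in DMSO (left), and for MET and the measured regulators of its transcription under erlotinib in each line (right), with filled points where the adjusted p is below 0.05. On the left ST14, SPINT1, SCNN1A, PRSS8, EPCAM and CLDN7 are called lower in T15-2 and not in ER3, and on the right the HCC827 points of MET, ETV5, EGR1 and FOSL1 lie below those of both sublines.

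Ligands were little represented. None of the 3 HGF probes reached the filter, with 0, 1 and 0 of 18 arrays above background, so HGF transcript was not measurable at this signal in any group. The probe for MST1, which encodes macrophage-stimulating protein and has near-identical copies in the genome that the probe may also detect, was above background on all 18 arrays. Its values in HCC827 were 5.49, 6.06 and 5.80 in DMSO and 7.23, 7.03 and 7.08 in erlotinib, with no overlap. The signal rose in HCC827 (1.33 ± 0.16, SE, limma adjusted p = 3.05e-06) and in T15-2 (0.72 ± 0.16, adjusted p = 0.0105), and did not pass in ER3 (0.19, adjusted p = 0.559).

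Of 17 listed ligands and activators 8 were measured, and under erlotinib in HCC827 4 of them rose and 1 fell (19.2% and 18.5% of all genes), with a median of 0.17 against 0.0080 for all genes. Besides MST1, the risen ones included PLAT, tissue plasminogen activator (1.26 ± 0.16, SE, limma adjusted p = 3.07e-06), and the transmembrane protease TMPRSS2 (0.47 ± 0.10, adjusted p = 0.000977). PLAU, the urokinase-type plasminogen activator, fell (-0.81 ± 0.10, adjusted p = 2.91e-06). None of the 8 passed in ER3, and MST1 alone did in T15-2, near the 3.76% and 8.43% of all genes called there. Without drug, PLAT was higher in ER3 (1.38 ± 0.16, adjusted p = 1.12e-06) and in T15-2 (0.56 ± 0.16, adjusted p = 0.00945) than in HCC827, and PLAU was higher in ER3 (1.05 ± 0.10, adjusted p = 1.05e-07). TMPRSS2 was above background on none of the untreated subline arrays. Its level was at least 1.13-fold lower than in HCC827 in ER3 and at least 1.15-fold lower in T15-2. Limma adjusted p-values of the fitted differences, which do not test these bounds, were 5.23e-05 and 0.000239. The comparisons of ER3 and T15-2 with HCC827 share the HCC827 arrays.

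Of 21 listed regulators of MET transcription 20 were measured. Under erlotinib in HCC827, 9 fell and 5 rose, with a median of -0.19, where 18.5% of all genes fell and 19.2% rose. Large falls were seen in the ETS factor ETV5 (-4.31 ± 0.11, SE, limma adjusted p = 6.95e-16), the immediate early factor EGR1 (-3.60 ± 0.14, adjusted p = 4.21e-13), the AP-1 subunit FOSL1 (-2.91 ± 0.13, adjusted p = 2.6e-12) and the ETS factor ETV4 (-1.34 ± 0.13, adjusted p = 2.15e-07). ETV5 and EGR1 were each above background on 1 of the 3 treated HCC827 arrays, so their fitted changes have no firm lower end and no order. In ER3 and in T15-2, 2 fell and 1 rose (1.74% and 2.01% of all genes in ER3, 4% and 4.43% in T15-2). The 2 that fell were FOSL1 and EGR1 in either subline, FOSL1 with log2 changes of -0.61 in ER3 and -0.70 in T15-2 and EGR1 with -0.57 in ER3 and -1.58 in T15-2. ETV5 did not pass in ER3 (-0.12, adjusted p = 0.604) or in T15-2 (-0.13, adjusted p = 0.545). Response differences from HCC827 were called higher for 8 and lower for 4 of the 20 in ER3 (11.6% and 10.4% of all genes). For T15-2 they were called higher for 7 and lower for 1 (7.17% and 5.9%). ETV5, EGR1 and FOSL1 were among those called in both sublines. The FOSL1 difference was 2.30 for ER3 (adjusted p = 5e-08) and 2.22 for T15-2 (adjusted p = 1.09e-07). Untreated, 9 of the 20 were higher and 3 lower in each subline than in HCC827. A part of these regulators in the MET change was not tested.

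Of 26 listed genes that restrain or remove the receptor 21 were measured. Under erlotinib in HCC827, 10 rose and 2 fell, with a median of 0.22, where 19.2% of all genes rose and 18.5% fell. They included the membrane protein LRIG1, which promotes receptor degradation (1.07 ± 0.10, SE, limma adjusted p = 8.98e-08), the MET-binding protein RANBP10 (0.77 ± 0.09, adjusted p = 2.25e-06) and the phosphatase PTPN1 (0.73 ± 0.09, adjusted p = 3.29e-06) upward, and the feedback inhibitor SPRY2 (-1.41 ± 0.10, adjusted p = 3.87e-09) downward. None of the 21 passed in either subline under drug, near the 3.76% of all genes called in ER3 and the 8.43% in T15-2. In ER3 without drug LRIG1 was above background on none of the 3 arrays and at least 2.79-fold lower than in HCC827 (adjusted p = 6.46e-11 for the fitted difference, not the bound). SH3KBP1, an adaptor of receptor endocytosis, was higher in untreated ER3 (1.19 ± 0.11, adjusted p = 9.12e-08).

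Of 32 listed adaptors and effectors 26 were measured, and 7 rose and 2 fell in HCC827 under erlotinib, with a median of -0.013. That is near the 37.7% called among all genes. Among those that rose were the docking protein GAB2 (0.86 ± 0.10, SE, limma adjusted p = 1.2e-06), STAT3 (0.62 ± 0.09, adjusted p = 1.73e-05) and the focal adhesion protein PXN (0.60 ± 0.11, adjusted p = 0.000242). Of 19 listed co-receptors and partners 15 were measured, and 8 were lower and 2 higher in untreated T15-2 than in HCC827 (16.3% and 15.9% of all genes), with a median of -0.33. ERBB3, a receptor with weak kinase activity through which MET is known to signal, was lower (-1.68 ± 0.13, adjusted p = 6.51e-09), as were the heparan sulfate proteoglycan SDC1 (-0.97 ± 0.10, adjusted p = 6.27e-07) and ERBB2 (-0.76 ± 0.16, adjusted p = 0.000987).

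Of 28 listed receptor tyrosine kinases outside the family 20 were measured. Untreated T15-2 was lower than HCC827 for 9 and higher for 3, and untreated ER3 was higher for 5 and lower for 3. Among all genes 15.9% were higher and 16.3% lower in T15-2, and 16% higher and 19% lower in ER3. AXL, ERBB2 and ERBB3 are also in the list of co-receptors and partners, so the counts of these lists are not independent. Those higher in ER3 included AXL (2.97 ± 0.17, SE, limma adjusted p = 1.08e-10) and EPHA2 (1.30 ± 0.12, adjusted p = 8.97e-08), beside the 0.079 of MET that did not pass. The collagen receptor DDR1 was lower in T15-2 (-1.07 ± 0.14, adjusted p = 8.35e-06).

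The 5 tested genes nearest to each member on either side, in the order of the RefSeq table, were read for changes along the chromosome. Around MET on chromosome 7, untreated T15-2 was higher than HCC827 for 7 of the 10 neighbours and lower for none (15.9% and 16.3% of all genes), with a median of 0.33 beside 0.32 for MET itself. The neighbours higher there were TES (0.83, adjusted p = 7.6e-06), CAPZA2 (0.50, adjusted p = 0.000358), LSM8 (0.42, adjusted p = 0.00319), ST7, ING3, CAV2 and CAV1. In ER3 3 of the 10 were higher and none lower (16% and 19% of all genes). The higher ones were CAV2 (0.75, adjusted p = 6.63e-06), TES (0.73, adjusted p = 3.03e-05) and CAPZA2 (0.25, adjusted p = 0.0389). Around ST14 on chromosome 11, 5 of the 10 were lower in T15-2 and none higher, with a median of -0.31 and the lowest, JAM3, at -0.99, while ST14 itself was at -2.10. In untreated ER3, 2 of the ST14 neighbours were lower and none higher, with the lowest at -1.03, while ST14 itself was at -0.18 and not called. Around SPINT1, 4 were lower and 2 higher in T15-2. There, 3 were lower and none higher in ER3, where SPINT1 itself was higher. The neighbours of MST1R had 1 lower and none higher in T15-2, and 1 lower and 1 higher in ER3. Those of SPINT2 had 1 lower and 2 higher in T15-2, and none lower and 2 higher in ER3. Copy number was not measured.

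**Figure D4:**
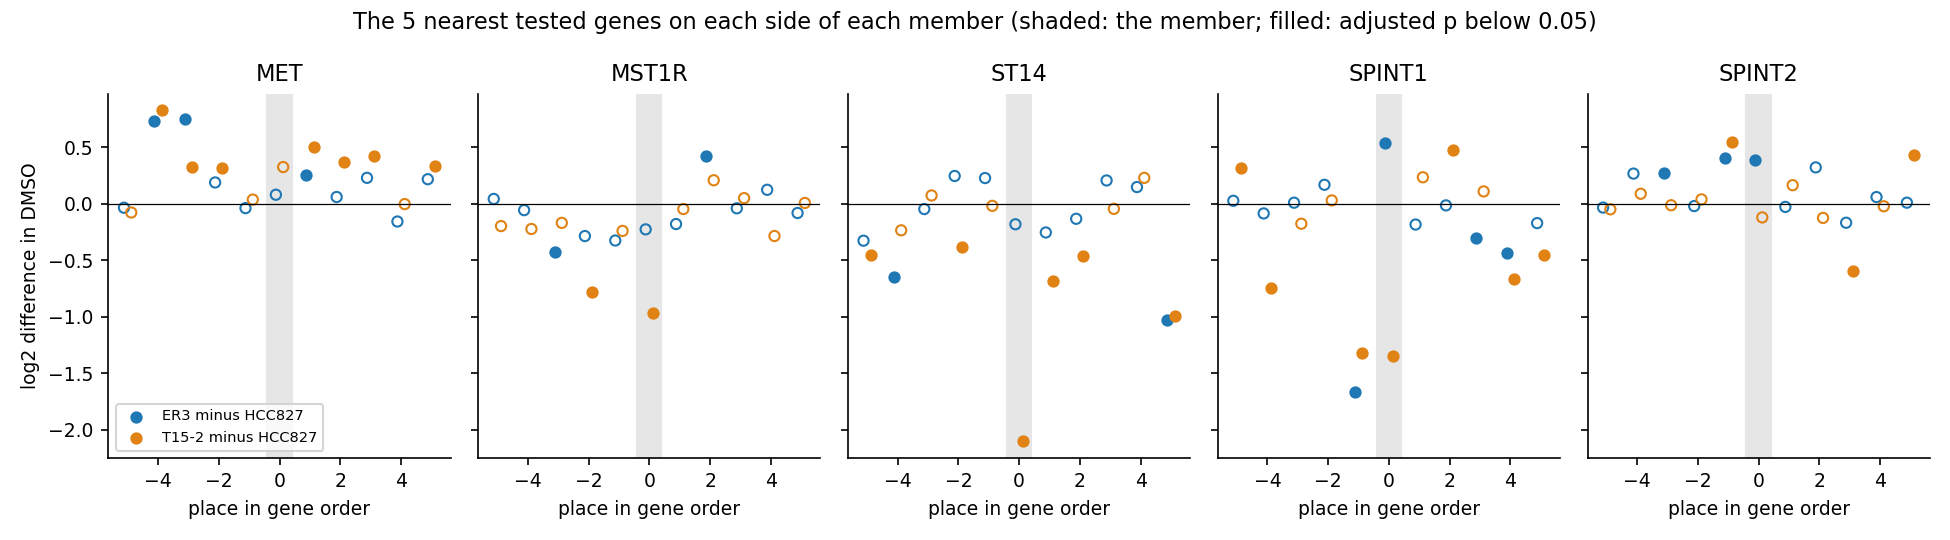
Log2 difference from HCC827 in DMSO (vertical axis) of each member, at place 0 in the shaded band, and of the 5 nearest tested genes on each side in gene order (horizontal axis), with filled points where the adjusted p is below 0.05. The neighbours of MET lie mostly above 0 in T15-2, with 7 of 10 called higher, and ST14 at -2.10 in T15-2 lies below all of its neighbours.

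Likeness over the 18 arrays is a description, since arrays share lines and treatments. The genes most like MET were NUP153 (Pearson r = 0.95), MYO10 (0.95), KPNA1 (0.93), RPP40 (0.93) and SPRY2 (0.93). Those most like ST14 were IFNAR2 (0.98), INHBB (0.98), CXCL16 (0.97), CGN (0.97) and ACSS2 (0.97), and those most like SPINT1 were INAVA (0.98), PLAC8 (0.97), ZNF165 (0.97), DNAAF11 (0.97) and CORO2A (0.97). For MST1R they were PDE9A (0.94), PKIB (0.92), CAVIN2 (0.92), CCNA2 (0.92) and CAPN8 (0.91), and for SPINT2 they were MILR1 (0.93), ITGB2 (0.93), CAPZB (0.92), TMC6 (0.92) and GMEB1 (0.91). Among the members, ST14 went with SPINT1 (r = 0.90, where SPINT1 was 87th of 11819 genes in likeness to ST14) and with MST1R (r = 0.90, 94th). For MET r with the other members ran from -0.46 with ST14 to -0.15 with SPINT2.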

How the data were processed

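Biotin-labelled RNA of 18 samples was measured on Illumina BeadChips. The deposited signal table gives each probe a bead summary intensity on a linear scale and a detection p-value. BeadStudio (version not given in the sources used here) appears in the submitters' processing notes. Processed intensity values of the authors stand in another deposited table and served as an alternative only. Signals were corrected and normalized with the neqc steps of limma 3.58.1 in R 4.3.3 (negative controls inferred from the detection p-value, offset 16, quantile normalization, log2). Of 48803 probes 19931 were kept, each with detection p below 0.05 on 3 or more arrays. Symbols came from the platform annotation, with 28093 probes of 1 symbol, 13 of several and 20697 of none, and 28054 were matched in RefSeq's GRCh38.p14 table. Each gene took the value of its brightest kept probe.

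One limma fit over the 18 arrays gave each of the 6 groups a mean, and eBayes tested 12 contrasts of them with Benjamini-Hochberg adjustment over 11820 genes. Arrays give no counts, and their number limits the precision. On simulated data the fit recovered 22%, 74%, 100% and 100% of genes changed 1.25, 1.5, 2 and 4-fold by erlotinib in HCC827, with 1.99% of calls false, and 2%, 42%, 84% and 100% of such differences in response between ER3 and HCC827, with 5.79% false. In the simulation 50 of 11820 genes were changed by each amount, whereas 37.7% of genes were called for erlotinib in HCC827. These rates need not hold for the calls reported. The members, gene lists, tests and the rule for named genes were chosen with earlier results of these data known. That rule took every member, HGF and MST1, up to 4 measured genes of each list with the largest change in each of 3 comparisons (erlotinib in HCC827 and either subline against HCC827 in DMSO), and for each member the 5 most alike genes and the 5 nearest on each side. Listed genes without a kept probe were not tested. Alternatives were the background correction, scaling, source table, probe filter, probe choice, groups in the fit, variance model, replicate block and leaving out each array. Software for motifs and figures was Python 3.11.15, pandas 2.3.3 and matplotlib 3.10.9.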

Additional observations from a re-analysis of the deposited data

Results flagged for a closer look

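MET responded to erlotinib differently in the sublines and in the parental line. The response of ER3 minus that of HCC827 was 2.36 ± 0.32 (SE, limma adjusted p = 3.97e-05), and that of T15-2 minus HCC827 was 2.08 ± 0.32 (adjusted p = 0.000256). All 3 treated HCC827 arrays lay below all 3 untreated ones, and both differences rest on these same HCC827 arrays. The fitted SPINT1 response in T15-2 lay below that in HCC827, with a difference of -0.44 ± 0.13 (adjusted p = 0.0318), a call lost in 8 of 28 alternatives (median scaling, trend and robust variance, or leaving out any of 6 arrays). The change within T15-2 itself did not pass (0.099, adjusted p = 0.59). The SPINT1 probe was above background on 1 of the 3 untreated T15-2 arrays, so a smaller response there was not established. No explanation was tested for any of these differences.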

How the results depend on the processing

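The 27 called results of single genes were recomputed in 751 alternatives. The call was kept in 716 and lost with the same direction in 35, and none reversed; 21 of the 27 kept it throughout. With the stricter filter on dim probes MST1R was not tested. Lost calls were those of SPINT1 and SPINT2 given in the report, with SPINT1 between treated ER3 and HCC827 lost most often, and with the authors' processed values too (0.18, adjusted p = 0.0585). The cause was not tested. MET rose in treated ER3 after median scaling (0.83, adjusted p = 0.0438) and, in an alternative chosen after seeing the data, without DMSO replicate 2 of ER3 and erlotinib replicate 3 of T15-2 together (0.89). Leaving out 1 array gave 0.38 (DMSO replicate 1 of ER3) to 0.89 (DMSO replicate 2 of ER3) for it. Median scaling shifted the median of all genes by -0.10 (HCC827), 0.14 (ER3) and 0.12 (T15-2) under erlotinib, by -0.22 and -0.12 in ER3 and T15-2 against HCC827 in DMSO and by 0.25 and 0.24 in the differences of response. It turned the sign of uncalled values to -0.18 for SPINT2 (erlotinib in HCC827), 0.013 for MST1R (erlotinib in ER3), 0.060 for SPINT2 (erlotinib in ER3), -0.21 for MET (ER3 vs HCC827 in DMSO), 0.047 for MET (T15-2 vs ER3 in erlotinib), 0.20 for ST14 (response of ER3 minus HCC827), 0.013 for SPINT1 (response of ER3 minus HCC827), 0.24 for SPINT2 (response of ER3 minus HCC827), 0.0047 for SPINT2 (response of T15-2 minus HCC827). It made MST1R lower in untreated ER3 than in HCC827 (-0.45, adjusted p = 0.0132). Without both arrays that stood apart, MET in ER3 against HCC827 in DMSO was -0.17 and in T15-2 against ER3 in erlotinib 0.18. Without 1 array, values ranged from -0.17 to 0.34 for MET (ER3 vs HCC827 in DMSO), -0.018 to 0.49 for MET (T15-2 vs ER3 in DMSO), -0.18 to 0.18 for MET (T15-2 vs ER3 in erlotinib), -0.18 to 0.084 for MST1R (response of T15-2 minus ER3), -0.10 to 0.078 for SPINT2 (erlotinib in ER3), -0.023 to 0.14 for SPINT2 (erlotinib in HCC827), -0.17 to 0.021 for SPINT2 (response of ER3 minus HCC827), -0.13 to 0.016 for ST14 (erlotinib in HCC827). None of these turned values was called. The number of the 5 genes called went from 0 to 1 for erlotinib in ER3 (median scaling, or without both arrays) and in T15-2 (stricter filter, or without both arrays), and from 2 to 1 for the response of T15-2 minus HCC827 (median scaling, or trend and robust variance). Without 1 array it ranged from 0 to 1 for erlotinib in ER3 and in T15-2, from 1 to 2 for ER3 against HCC827 in DMSO and for the response of T15-2 minus HCC827, and from 1 to 3 for ER3 against HCC827 in erlotinib. Whether replicate numbers pair the samples is not known. Deviations of same-numbered arrays correlated above 0.1 in 7 of 45 pairs, from -0.40 to 0.27. Deviations from means of 3 arrays depend on each other, so these values cannot decide it. With the replicate block MET in HCC827 was -1.71 (adjusted p = 1.17e-05), the 3 calls there remained 3, and only SPINT1 in ER3 against HCC827 in erlotinib was lost (0.23, adjusted p = 0.0617).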
